A study of Mus musculus with 6 samples.

Results

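Box C/D small nucleolar RNAs (snoRNAs) are short RNAs of the nucleolus. Genes whose symbol is Snord followed by a number, with a value above 0 in at least 1 library, gave 41 rows, and the host genes Gas5 and Snhg with a value above 0 gave 13 more, so that 54 of the 24520 rows of the expression table are described. Another 2 Snord rows (Snord1a and Snord7) and the row of Snhg14 were listed at 0 in every library. Members were chosen by their symbol and by a TPM above 0, with earlier results of these data known, so their presence above 0 is no finding. RNA abundance was measured in endothelial cells, the cells that line blood vessels, taken by flow cytometry from wild-type mouse lung. The group labelled Aged held 3 libraries from mice 18 months old, and the group labelled mAdu held 3 libraries from mice 8 months old. All 6 libraries shared the genotype, the tissue and the library kit, and no other treatment or allele is named. Separate mice or pools behind the libraries of an age are not named, so p-values measure only the spread among the libraries at hand, and part of it may be technical.

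A box C/D snoRNA carries a C box near its start and a D box near its end, which are brought together and bound by fibrillarin and its partner proteins. A stretch before the D box pairs with ribosomal RNA or a spliceosomal RNA and directs 2′-O-methylation of 1 base there, and a few members act in the cleavage of the ribosomal precursor instead. In mammals most of these RNAs are cut out of the introns of a host gene, often one for a ribosomal protein or for a noncoding RNA such as Gas5 or an Snhg (small nucleolar RNA host gene). The spliced host RNA and the snoRNA therefore come from the same transcript but are degraded by different routes.

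The sequences of 5 Snord genes are shown because the host comparisons and the leading rows below turn on them. They are the GENCODE M21 transcripts of the GRCm38 assembly, 5′ to 3′. Capitals mark the C box TGATGA where it lay in the first 20 bases and the D box CTGA where it lay in the last 20.
Snord47: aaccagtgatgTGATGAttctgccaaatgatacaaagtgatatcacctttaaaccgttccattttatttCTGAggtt
Snord87: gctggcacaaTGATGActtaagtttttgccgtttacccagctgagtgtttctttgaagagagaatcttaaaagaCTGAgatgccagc
Snord123: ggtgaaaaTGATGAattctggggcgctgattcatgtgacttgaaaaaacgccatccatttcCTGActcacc
Snord34: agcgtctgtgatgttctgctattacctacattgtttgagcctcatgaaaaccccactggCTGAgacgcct
Snord104: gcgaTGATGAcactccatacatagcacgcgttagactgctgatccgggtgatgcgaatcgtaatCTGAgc
Snord47 lies in Gas5 (chr1:161038082-161038158, plus strand), Snord87 in Snhg6 (chr1:9942463-9942549, minus strand) and Snord123 in Snhg18 (chr15:32241853-32241923, minus strand). Snord34 lies in the ribosomal protein gene Rpl13a (chr7:45126601-45126670, minus strand). Snord104 (chr11:106500993-106501062, plus strand) lies inside no annotated gene of its strand.

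These 2 motifs were searched on the RNA's own strand and as exact letters. Of the 41 Snord rows, 29 held TGATGA in their first 20 bases, 40 held CTGA in their last 20, and 28 held both. The same search found both in 0 of the 28 rows of box H/ACA snoRNAs (symbol Snora and a number), the other main class, and in 1 of the 365 microRNA gene rows above 0. Snord34, Snord22 and Snord118 were among the rows without these exact C box letters in that window. The Snord genes spanned 64 to 238 bases with a median of 77, and 31 of 41 were shorter than the 100-base reads.

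Of the 41 Snord rows, 38 lay inside another gene of the same strand. Ribosomal protein genes held 13 of them in 9 genes, other protein-coding genes held 15 in 12 genes, and noncoding genes held 10 in 8 genes. The remaining 3, Snord104, Snord118 and Snord13, lay in no gene. For 13 rows an exon of some annotated transcript of the host covered the snoRNA, so that host and snoRNA fragments cannot be fully told apart there. Related copies such as Snord35a and Snord35b, Snord49a and Snord49b, and Snord1b and Snord1c can share fragments, and their separate values are uncertain. The kit does not mark strand, and reads of a gene and of its overlapping partner on the other strand cannot be told apart. Whether the fragments of a Snord row came from the mature snoRNA or from a longer RNA that holds its sequence was not tested. Values given below for a snoRNA are those of its row.

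The values are TPM, which relate each transcript's fragments to its effective length, the number of positions from which a fragment of typical size could start. The 6 libraries held between 17325 and 17513 rows above 0 and correlated across tested rows at 0.966 to 0.982 on the log2(TPM + 1) scale. Endothelial markers were high in all of them, with the 9 listed genes summing to between 11794 and 14187 TPM, and 8 of these 9 were lower at 18 months. The ages did not overlap for 4 of them, all lower, and 3 (Cdh5, Kdr and Cldn5) had an unadjusted p under 0.05. Epithelial markers summed to 9311 to 18942 TPM at 18 months against 10797 to 19660 at 8 months, mainly Sftpc and Scgb1a1. Immune markers summed to 654 to 1336 and 592 to 1620 TPM. The 7 fibroblast and smooth muscle markers summed to 13.7 to 16.8 TPM at 18 months against 26.4 to 39.2 at 8 months, and all 6 tested were lower at 18 months, 5 with groups that did not overlap. Over all tested rows 18.7% did not overlap, and 14.2% were lower without overlap. The part of these cells in the Snord and host values was not tested. In such bulk samples fewer cells of a type and less RNA per cell cannot be told apart.

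Across all 12748 rows with a mean of at least 1 TPM, limma's moderated test on log2(TPM + 1) called 3 rows between the ages (0.0235%) at an adjusted p under 0.05, and 3 again (0.0235%) under the re-expression of short rows described below. Of these rows, 33.8% were higher at 18 months, and the median log2 difference (18 minus 8 months) was -0.08. All Snord and host differences below are on that scale.

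Snord rows ranged in level from a mean of 0.625 TPM for Snord61 to 311.8 TPM for Snord104, with a median of 33.3. The row just inside the rule was Snord61, listed above 0 in 1 library at 3.75 TPM. In all, 31 of 41 rows were above 0 in all 6 libraries, and 39 reached the mean of 1 TPM needed for the test, all but Snord61 and Snord85. Of these 39, 35 were higher and 4 lower at 18 months, and the median log2 difference stood at 0.55. None passed the threshold (limma, smallest adjusted p = 0.155). Unadjusted p values under 0.05 fell to 3 higher rows (Snord13, Snord34 and Snord32a) and 1 lower row (Snord17), where 3.45% of all rows were higher and 9.99% lower at that level. The groups of 3 did not overlap in 2 rows, Snord13 and Snord34, both higher, beside 18.7% of all rows (4.48% higher and 14.2% lower). With no filter, 36 of 41 were higher. Without the first 18-month library the median was 0.32 and 29 of the tested rows were higher. The 4 rows with an unadjusted p under 0.05 became 12 without the third 18-month library and 12 without the second 8-month library. The share of all rows was not counted in those settings, so these counts have nothing to be set against.

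Summed over the 41 Snord rows, the values stood at 3661, 2765 and 1974 TPM in the 3 libraries of 18 months. In those of 8 months the sums were 1546, 2168 and 1906 TPM. The first 18-month library was highest, and the third lay below the second 8-month library, so the ages overlapped. The means were 2799.9 ± 844 TPM (SD, n = 3) and 1873 ± 313 TPM (SD, n = 3).

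The TPM of short rows moved in steps whose size differed between libraries, and these steps were read from the table. For rows of 57 to 99 bases in RefSeq, which include 34 of the 41 Snord rows, each library's values were whole multiples of 1 step per length, taken as the TPM worth of 1 fragment. Of 1063 values under 60 fragments, 1036 were whole within 0.03, and 161 of 165 Snord values were. The steps were fitted to make these same values whole, so both shares were partly fixed in advance. With steps taken from microRNA rows alone, 156 of 167 Snord values were whole. The step of a 77-base row was 5.10, 2.23 and 1.60 TPM in the 3 libraries of 18 months and 1.48, 2.26 and 1.34 TPM in those of 8 months. This corresponded to effective lengths of 14.2, 26.7 and 45.7 bases and of 41.3, 31.3 and 53.6 bases. In the second 18-month library the 77-base rows Snord83b and Snord96a came to 17.57 and 90.77 fragments, which are not whole. Its step of 2.23 TPM, its 26.7 bases and its fragment sum below are therefore uncertain. The same fragment in a row of 1000 effective bases was worth between 0.0596 and 0.0732 TPM across the libraries.

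**Figure D1:**
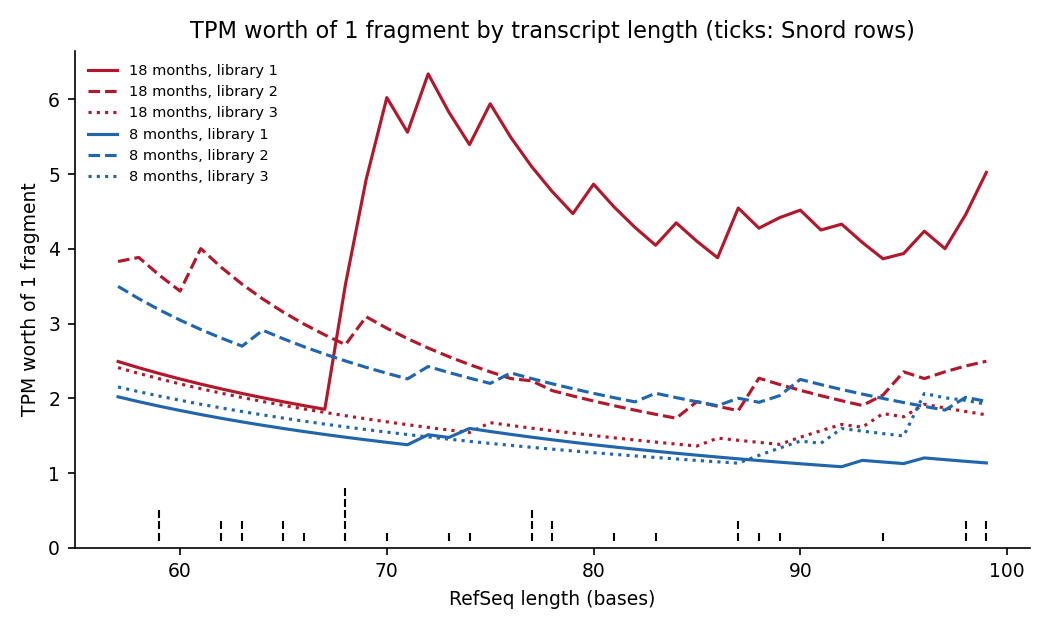
TPM worth of 1 fragment (y axis) against RefSeq transcript length in bases (x axis), 1 line per library, with ticks at the foot for the Snord rows of each length. The first 18-month library stands highest at all 32 lengths from 68 to 99 bases, and at 77 bases the lines lie between 1.34 and 5.10 TPM.

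The first 18-month library had the highest worth at 32 of 43 lengths, all of those from 68 to 99 bases and none of the 11 from 57 to 67. The highest library exceeded the lowest by 1.87 to 4.42 times, depending on length. The mean worth at 18 months was above that at 8 months at all 43 lengths, by 1.13 to 2.01 times. Among Snord rows of 57 to 67 bases, 8 of 8 tested were higher at 18 months, by 0.35 in the median. Among those of 68 to 99 bases, 21 of 24 were higher, by 0.56 in the median. With each row re-expressed at a common effective length, as described next, these counts were 6 of 9 with a median of 0.09 and 9 of 24 with a median of -0.12.

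Counted in fragments, the 34 rows held 700, 777.2 and 707 fragments in the libraries of 18 months and 734, 743 and 687 in those of 8 months. The means were 728 ± 42.7 and 721 ± 30.1 fragments (SD, n = 3 each), with overlapping libraries, while the same rows summed to 2014 ± 799 and 1308 ± 397 TPM. For 16 of the 34 rows the median was under 10 fragments a library, so the counting error of each such row is large. Each of the 34 rows was then re-expressed at the mean effective length of its size over the 6 libraries, an alternative chosen after seeing the data. At that common effective length the sums were 1456 ± 92.5 and 1441 ± 114 TPM (SD, n = 3 each).

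**Figure D2:**
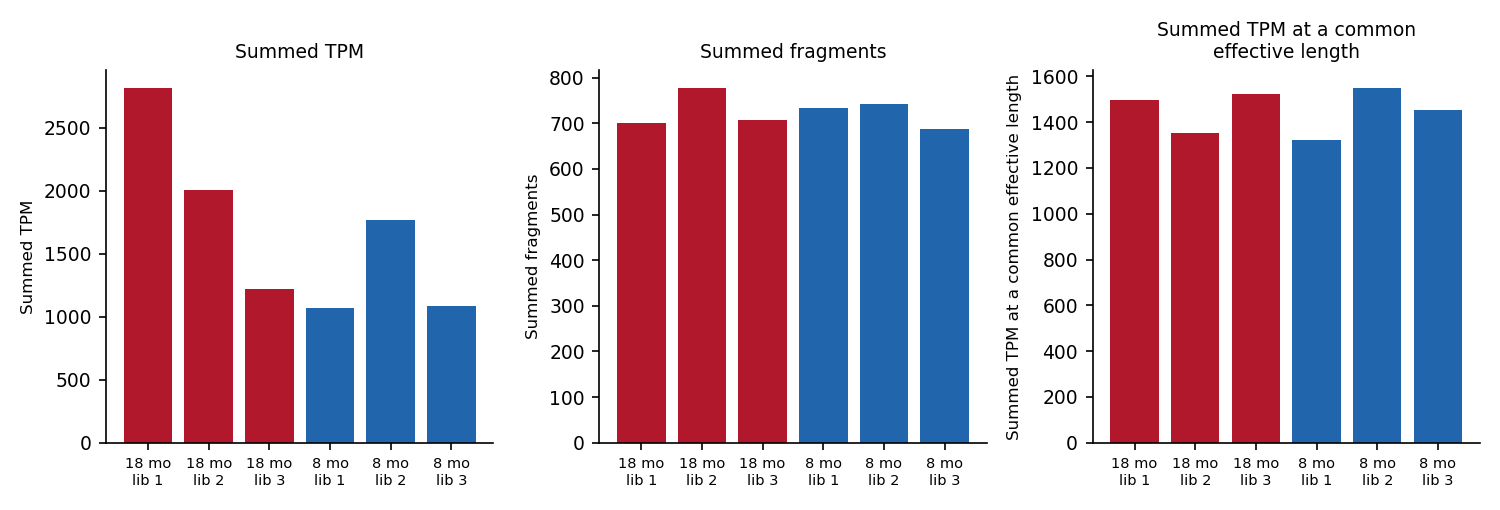
Sums over the 34 Snord rows of 57 to 99 bases in each library, as TPM, as fragments and as TPM at a common effective length, with red bars for 18 months and blue for 8 months. The TPM bars run from 1071 to 2815, while the fragment bars run from 687 to 777.2.

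At the common effective length, 15 of 33 tested rows were higher at 18 months and the median log2 difference was -0.03, where TPM gave 29 of 32 and 0.51. The other 7 Snord rows, shorter than 57 or longer than 99 bases, could not be re-expressed and kept 6 of 7 higher with a median of 0.59. Over all Snord rows 21 of 40 tested were then higher, with a median of 0.06, beside 33.3% of all rows. None passed the threshold (limma, smallest adjusted p = 0.149). At an unadjusted p under 0.05 stood 5 higher rows (Snord13, Snord34, Snord32a, Snord52 and Snord92) and 3 lower rows (Snord17, Snord87 and Snord95), where 3.41% of all rows were higher and 10.2% lower. The groups did not overlap in 6 rows, 5 of them higher and 1 lower, beside 18.8% of all rows (4.5% higher and 14.3% lower). In fragments the separation was less clear. Among the higher rows, Snord34, Snord52 and Snord92 had a fragment count shared by both ages. Snord92, for example, had 9, 9 and 6 fragments at 18 months against 6, 6 and 4 at 8 months.

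Of the 3 rows outside any gene, Snord104, a methylation guide for 28S ribosomal RNA, had the highest mean TPM of all Snord rows. It was highest in 3 of 6 libraries, Snord22 in 2 and Snord118 in 1. At the common effective length its means were 254 TPM at 18 months and 275 TPM at 8 months. Snord22 was not re-expressed, and its means of 330 and 245 TPM are on another scale. Snord104 stood at 577, 335 and 235 TPM at 18 months against 227, 312 and 185 TPM at 8 months. The first 18-month library lay far above the rest, and the ages overlapped. Its fragments were 99, 131 and 149 against 154, 133 and 127, and here that same library was the lowest. The log2 difference was 0.60 ± 0.32 (SE, limma adjusted p = 0.477) in TPM and -0.14 (adjusted p = 0.76) at the common effective length.

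Snord13, also known as U13, takes part in the maturation of 18S ribosomal RNA. It stood at 268, 309 and 131 TPM at 18 months against 46.3, 64.5 and 109 TPM at 8 months, with every 18-month library above every 8-month one. Fragments were 60, 127 and 72 against 40, 32 and 55, and these did not overlap either. The log2 difference was 1.67 ± 0.38 (SE, limma adjusted p = 0.155). At the common effective length it was 0.98, a fold of 1.98 (adjusted p = 0.183), so the row kept its direction at a smaller size.

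Snord118, also known as U8, is needed for the processing of the precursor of 5.8S and 28S ribosomal RNA. It stood at 319, 378 and 257 TPM at 18 months against 179, 79.9 and 317 TPM at 8 months. The third 8-month library lay within the 18-month range, and the log2 difference was 0.92 ± 0.43 (SE, limma adjusted p = 0.415). With 137 bases in RefSeq it was not re-expressed. Snord22, also known as U22 and needed for 18S ribosomal RNA, lies in Snhg1, which was not analysed here. It stood at 384, 216 and 390 TPM against 195, 155 and 385 TPM, and its log2 difference was 0.49 (limma adjusted p = 0.608) with overlapping ages.

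Rows in ribosomal protein genes were higher at 18 months in 13 of 13 cases in TPM, by 0.83 in the median. At the common effective length 7 of 10 were higher, with a median of 0.22. Rpl13a held 3 of them, Snord32a, Snord34 and Snord35a. Of these, Snord32a and Snord35a are known from cultured cells as mediators of the response to excess fatty acid. Snord34 stood at 13.3, 38.9 and 20.4 TPM at 18 months against 10.9, 8.07 and 5.08 TPM at 8 months, without overlap. These values came from 7, 13 and 11 fragments against 7, 3 and 3. The log2 difference was 1.41 ± 0.38 (SE, limma adjusted p = 0.195) and stayed at 1.23 at the common effective length (adjusted p = 0.149).

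Snord32a stood at 31.9, 22.8 and 10.3 TPM against 5.40, 16.1 and 5.004 TPM, with fragments of 7, 12 and 7 against 4, 8 and 4, and the ages overlapped. Its log2 difference was 1.25 (limma adjusted p = 0.33) in TPM and 0.67 (adjusted p = 0.359) at the common effective length. Snord35a, from the same transcript, had differences of 0.83 and 0.15 on the same scales. Rpl13a itself differed by 0.04 (limma adjusted p = 0.905). Snord73a, in Rps3a1, was the most abundant row of the ribosomal protein group and differed by 0.26 in TPM and by -0.24 at the common effective length. Snord83b, in Rpl3, differed by 0.94 and 0.30.

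Rows in other protein-coding genes were higher in 10 of 13 tested cases in TPM with a median of 0.35, and in 2 of 12 at the common effective length with a median of -0.15. Snord96a, a guide that lies in Rack1 beside Snord95, stood at 337, 203 and 126 TPM against 139, 188 and 99.5 TPM. Its log2 difference was 0.57 (limma adjusted p = 0.537), and -0.09 at the common effective length. Snord95 differed by -0.02 and -0.50 on the same scales, with fragments of 13, 19 and 14 against 29, 25 and 14. Snord2, in the translation factor gene Eif4a2, differed by 0.06 and -0.43. Snord8, in the chromatin remodeller gene Chd8, differed by 0.63 and -0.15, and Snord82, in the nucleolin gene Ncl, by -0.04 and -0.42.

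Snord17, in the sorting nexin gene Snx5, was the lower row with the smallest p in TPM (at the common effective length this was Snord87). It stood at 15.5, 22.2 and 16.1 TPM at 18 months against 22.2, 26.0 and 25.0 TPM at 8 months, which overlapped narrowly. The log2 difference was -0.44 ± 0.16 (SE, limma adjusted p = 0.288). At 221 bases it was the longest of the rows in RefSeq and was not re-expressed.

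Rows in noncoding genes were higher in 9 of 10 cases in TPM with a median of 0.33, and in 5 of 9 at the common effective length with a median of 0.09. Snord49a and Snord49b, in 2410006H16Rik, differed by 0.25 and 0.35 in TPM and by -0.03 and 0.09 at the common effective length. Snord1b and Snord1c, in 1810032O08Rik, went opposite ways. Snord1b differed by 1.24 in TPM and 0.63 at the common effective length, and Snord1c by -0.77 and -1.40, from 0 to 8.88 fragments a library.

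**Figure D3:**
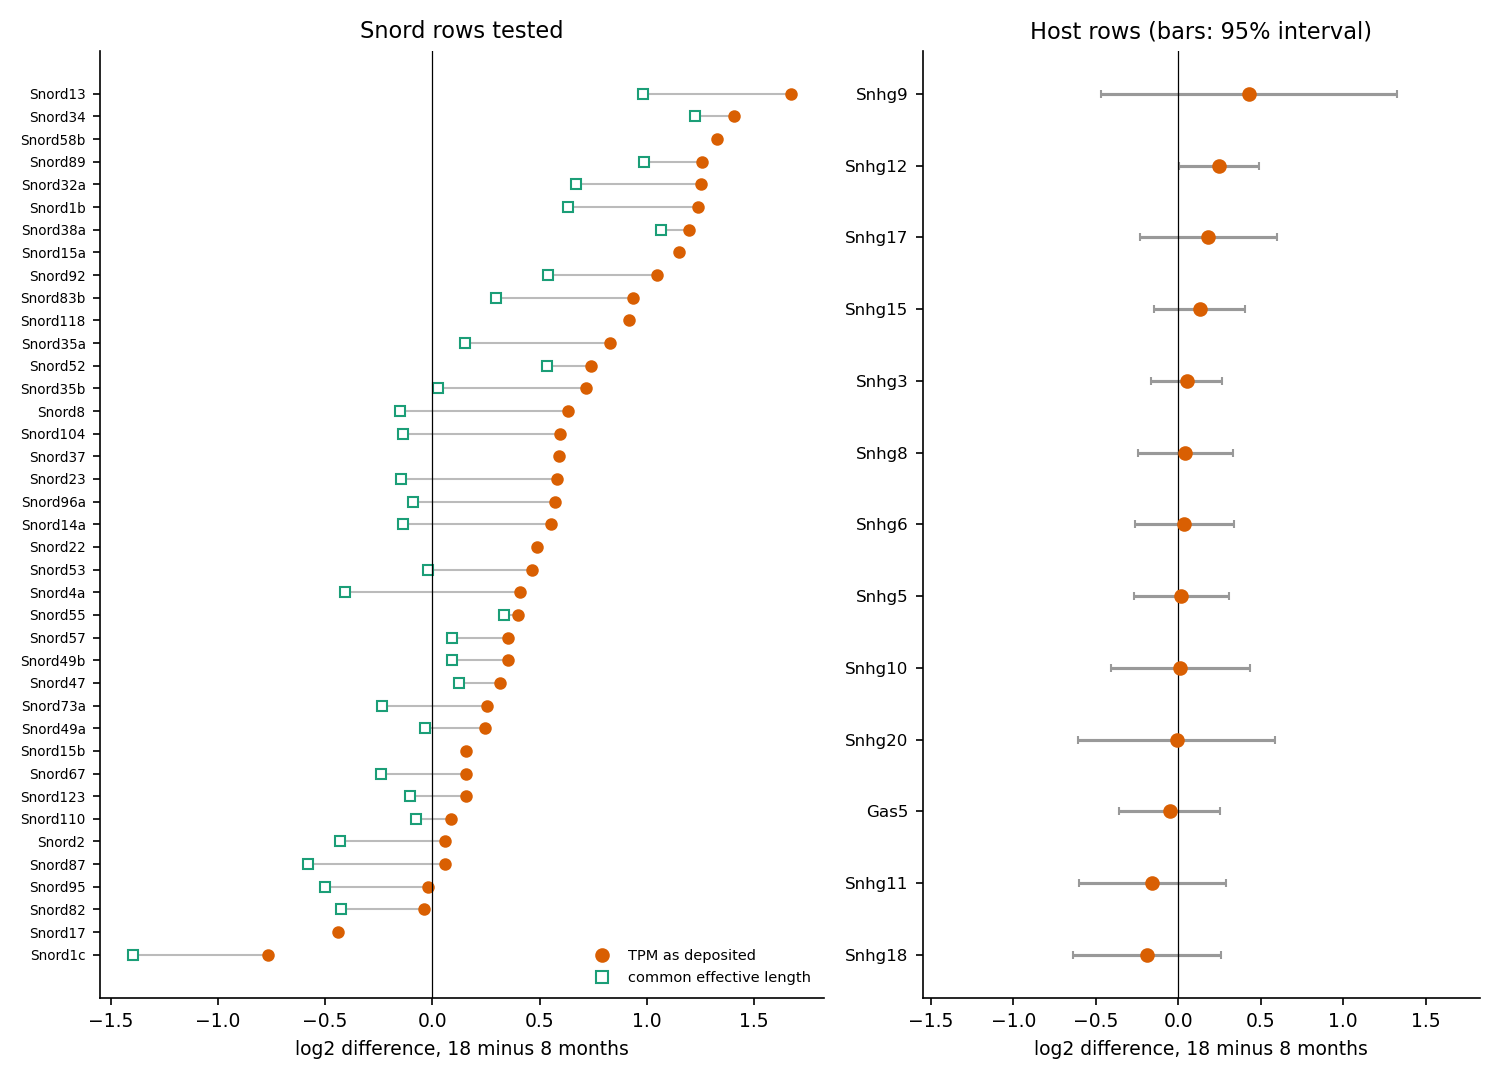
Log2 differences (x axis, 18 minus 8 months) of the 39 tested Snord rows (left panel; filled circles for TPM, open squares for the common effective length, joined by a line) and of the 13 host rows in TPM with 95% intervals (right panel). Of the circles, 35 lie right of 0, while the squares of the same rows spread to both sides, and 12 of the 13 host intervals include 0.

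Of the 13 host rows, 9 were higher at 18 months (11 with median-of-ratios scaling or quantile normalization), the median log2 difference was 0.04, and 0 passed the threshold (limma, smallest adjusted p = 0.361). At an unadjusted p under 0.05 there was 1, Snhg12, beside 3.45% of all rows higher and 9.99% lower. That count was 0 without the trend, with the replicate block, and without the first 18-month library, the third 18-month library or the first 8-month library. Without the second 8-month library it was 1, which was Snhg9 and not Snhg12. Their summed level was 551.1 ± 35.2 at 18 months and 529 ± 59.3 at 8 months in TPM (SD, n = 3 each). No host was re-expressed, since the RefSeq lengths used were at least 435 bases. These lengths can equal the span of the gene, as for Snhg9, whose longest GENCODE transcript was under 200 bases. Whether the TPM of Snhg9 moved in steps like those of short rows was not tested.

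Gas5 (growth arrest specific 5), whose spliced RNA is degraded by nonsense-mediated decay in growing cells, was the most abundant host. It stood at 141, 102 and 118 TPM at 18 months against 118, 136 and 119 TPM at 8 months. The 18-month libraries included both the highest and the lowest value. The log2 difference was -0.05 (95% interval -0.36 to 0.25, limma adjusted p = 0.91), and turned to 0.041 with median-of-ratios scaling and 0.015 with quantile normalization. Gas5 spans chr1:161034422-161038539 on the plus strand and overlaps Zbtb37 on the other strand.

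Groups did not overlap in 1 of the 13 hosts, Snhg12, beside 18.7% of all rows (4.48% higher). Snhg12 stood at 48.1, 41.2 and 45.6 TPM against 36.9, 35.8 and 40.4 TPM. Its log2 difference was 0.25 (95% interval 0.0039 to 0.49, limma adjusted p = 0.361). In order of mean level, Gas5 (122 TPM) was followed by Snhg5 (72.9), Snhg9 (59.9), Snhg8 (58.1), Snhg6 (47.6), Snhg3 (47.5), Snhg20 (46.0), Snhg12 (41.3), Snhg10 (15.8), Snhg15 (14.1), Snhg17 (9.42), Snhg18 (3.58) and Snhg11 (1.54), on the TPM scale, which is per effective length. Gas5 lay above every other host in each library. From Snhg5 to Snhg12, and for Snhg10 and Snhg15, neighbouring hosts had overlapping library values.

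The largest host difference was that of Snhg9, 0.43 (limma adjusted p = 0.696), which ran from 0.13 without the first 8-month library to 0.91 without the second, with libraries from 31.1 to 93.5 TPM at 8 months that enclosed the 18-month range. The Snhg9 gene spans 435 bases and overlaps the ribosomal protein gene Rps2 on the other strand. Snhg17 differed by 0.18, Snhg15 by 0.13, Snhg3 by 0.05, Snhg8 by 0.04, Snhg6 by 0.04, Snhg5 by 0.02 and Snhg10 by 0.01. Snhg20 differed by -0.01 (0.082 with median-of-ratios scaling), Snhg11 by -0.16 and Snhg18 by -0.19. Snhg3 shares its strand and span with Rcc1, so fragments of these genes may be mixed.

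Over the 6 libraries, the tested rows whose log2(TPM + 1) followed Gas5 most closely were Acaca, N4bp2 and Gins3, with Pearson correlations of 0.996, 0.993 and 0.991. They are the highest of 12747 other rows and describe these libraries only. Among the hosts Snhg8 was most like Gas5, at 0.94.

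The comparison of hosts with their own snoRNA rows could be made for 3 of the named hosts. Gas5 holds 10 annotated snoRNA genes, of which 1, Snord47, had a row. An exon of 1 of the 25 annotated Gas5 transcripts covers Snord47, so fragments of the pair cannot be fully told apart. Snord47 guides methylation of 28S ribosomal RNA and stood at 115, 94.5 and 55.3 TPM at 18 months against 70.2, 97.9 and 45.1 TPM at 8 months. These values came from 59, 30 and 29 fragments against 44, 35 and 26. Its level was 0.652 times that of Gas5 on average, and the snoRNA to host ratio differed by 0.37 on the log2 scale, below its SD of 0.50 between libraries. At the common effective length that difference was 0.18. With 1 library left out it ran from 0.11 (without the third 8-month library) to 0.66 (without the third 18-month library).

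Snord87, a methylation guide in Snhg6, stood at 64.7, 27.0 and 17.0 TPM at 18 months against 27.2, 45.4 and 21.4 TPM at 8 months. The first 18-month library was the highest in TPM although its fragments, 12, were fewer than in any 8-month library. Fragments were 12, 11 and 11 at 18 months and 17, 20 and 15 at 8 months, without overlap. The ratio to Snhg6 differed by 0.02 (SD 0.68) in TPM, from -0.42 without the first 18-month library to 0.44 without the third, and by -0.62 (SD 0.18) at the common effective length. On that scale Snord87 itself differed by -0.58 (limma adjusted p = 0.186), and Snhg6 differed by 0.04.

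Snord123, in Snhg18, rested on 0, 1 and 4 fragments at 18 months and 3, 0 and 2 at 8 months. Its ratio to Snhg18 differed by 0.35 with an SD of 1.22, from -0.36 without the second 8-month library to 0.97 without the first 18-month library, and by 0.09 at the common effective length. A difference between ages was not detectable at this depth.

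**Figure D4:**
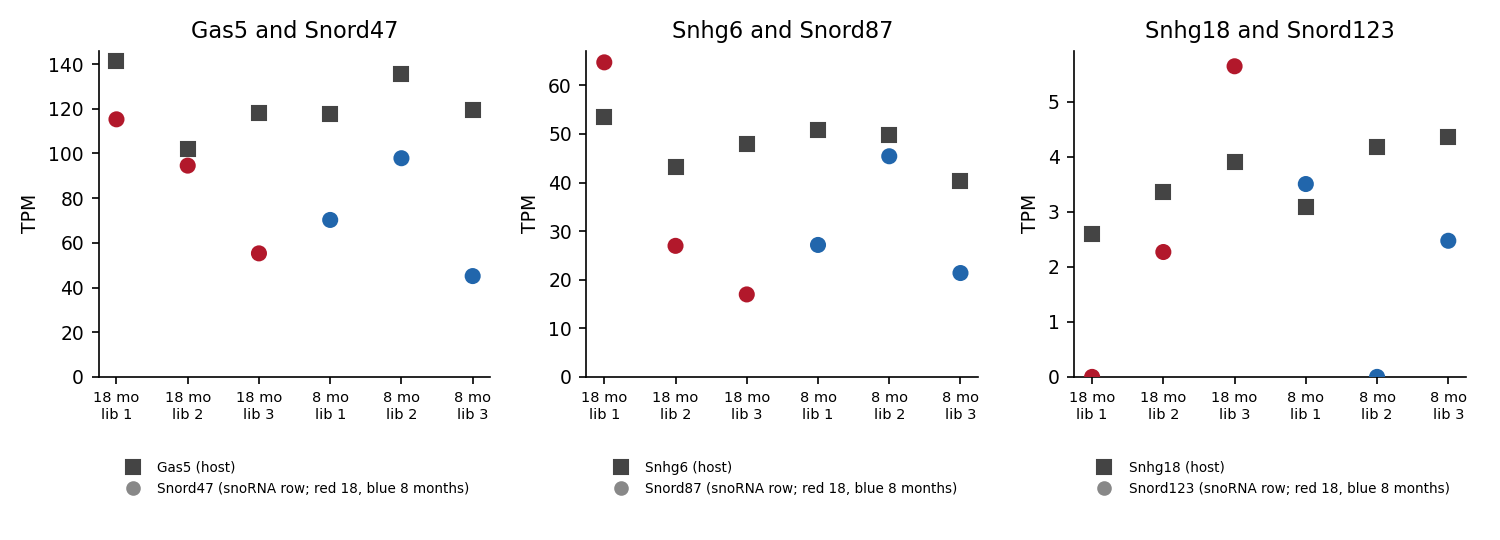
TPM (y axis) of the hosts Gas5, Snhg6 and Snhg18 (squares) and of the Snord row inside each (circles, red for 18 months and blue for 8 months) in the 6 libraries (x axis). Gas5 stays between 102 and 141 TPM, while Snord47 runs from 45.1 to 115 TPM with the ages mixed.

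Box H/ACA rows were read for another 3 of these hosts, 5 in all. Snhg8 also holds the row of Snora24, whose values are not given here. Snora44, in Snhg12, stood at 45.5, 33.8 and 29.3 TPM at 18 months against 18.5, 9.82 and 18.3 TPM at 8 months, without overlap (log2 difference 1.20, limma adjusted p = 0.155). Snora16a, in the same host, stood at 0, 5.02 and 11.3 TPM against 4.35, 10.7 and 15.6 TPM and differed by -1.27 (limma adjusted p = 0.574). Snora73a and Snora73b, the U17 copies in Snhg3 that act in ribosomal RNA cleavage, differed by -0.31 and -0.01, and Snora78, in Snhg9, by 0.17. Of the 5, 1 exceeded the difference of its host. None of these rows was within 57 to 99 bases, so none was re-expressed.

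Across all genes, 36 Snord rows lay in 27 genes that had a row of their own. The Snord row stood below its gene in TPM in 34 of 36 pairs, at a median of 0.149 times. It stood above in 2 pairs, Snord8 at 4.54 times Chd8 and Snord52 at 1.87 times 1110038B12Rik. In the 34 pairs with both rows tested, the Snord row had the larger difference in 30, with medians of 0.44 for the snoRNAs and -0.03 for the genes. For the 29 pairs that could also be re-expressed, this was 26 in TPM and 15 at the common effective length. The snoRNA median there moved from 0.41 to -0.03, beside -0.04 for the genes. Of the 27 genes, 10 were higher at 18 months and 0 passed the threshold (limma, smallest adjusted p = 0.194, Nop53). Nop53, which holds Snord23, differed by -0.73.

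Short rows of other classes were read in the same way. Of the microRNA gene rows, 165 of 250 tested were higher at 18 months in TPM with a median of 0.35. With rows of 57 to 99 bases re-expressed and the others left in TPM, this was 123 of 242 with a median of 0.01. For the rows of 57 to 99 bases alone, 118 of 174 were higher in TPM, with a median of 0.35. At the common effective length 76 of 166 of them were higher, with a median of -0.16. Of the 28 Snora rows, 19 were higher with a median of 0.30, and 0 of them could be re-expressed.

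The proteins that carry box C/D snoRNAs showed no called difference. Of the 4 core proteins, 2 were higher and 2 lower. Fbl, the methyltransferase fibrillarin, stood at 25.5 ± 4.51 at 18 months and 31.6 ± 2.33 at 8 months in TPM (SD, n = 3 each, log2 difference -0.31, limma adjusted p = 0.404). Nop56 differed by 0.11, Nop58 by 0.13 and Snu13 by -0.04. Of 10 assembly factors, 2 were higher and 8 lower with a median of -0.09, and 0 passed (limma, smallest adjusted p = 0.434, Ruvbl2, an ATPase of the assembly complex). Of 6 box H/ACA proteins, 2 were higher, and 0 passed.

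Genes that free snoRNAs from introns or trim them gave 4 higher and 5 lower of 9, with 0 called. Tent4b, a poly(A) polymerase that marks nuclear RNA for trimming, stood at 8.36 ± 3.56 TPM against 3.75 ± 0.962 TPM (SD, n = 3 each) without overlap (log2 difference 0.93, limma adjusted p = 0.212). Dbr1, which opens intron lariats, differed by -0.46 (limma adjusted p = 0.359). Exosc3, a subunit of the RNA exosome, differed by -0.46 without overlap (limma adjusted p = 0.298). Of 10 factors of nonsense-mediated decay, the route that degrades spliced Gas5, 3 were higher and 7 lower with a median of -0.18 and 0 called. Smg9, a regulator of the decay kinase Smg1, stood at 11.8 ± 3.01 TPM against 20.7 ± 2.24 TPM (SD, n = 3 each) without overlap (log2 difference -0.78, limma adjusted p = 0.174). Smg5 differed by -0.47, also without overlap (limma adjusted p = 0.33). Over all tested rows 4.48% were higher and 14.2% lower without overlap.

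Of 12 genes of RNA polymerase I and ribosomal RNA processing, 4 were higher and 8 lower with a median of -0.09 and 0 called. Among RNAs kept in the nucleus, 1 of 4 tested was higher, with Malat1 at a difference of 0.06 and Neat1 at -0.20. These lists stand beside a median of -0.08 over all tested rows.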

How the data were processed

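RNA of sorted lung endothelial cells was sequenced in 6 libraries. Per the labels' protocols, 10 ng of total RNA entered the SMARTer Ultra Low kit, with 100 bp paired-end reads. The deposited values are TPM, 1 per gene and library, made with kallisto on mm10 per the submitters' processing notes. The kallisto version and transcript set are not stated. The TPM keep no read depth, except that short rows show the worth of 1 fragment.

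Symbols, positions and sequences came from GENCODE M21 (24299 of 24520 identifiers matched, 221 did not), and short-row lengths from RefSeq, which the steps followed. The snoRNAs' RefSeq and GENCODE lengths can differ. Groups followed the sample titles. Values were tested as log2(TPM + 1) for rows with a mean of at least 1 TPM, in a 2-sided test of age by limma 3.58.1 (R 4.3.3), run with trend and without covariates and adjusted by Benjamini-Hochberg over 12748 rows (threshold 0.05). An exact permutation test of 3 against 3 libraries cannot go below 0.1. Intervals are at the 95% level.

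On simulated data for 12748 genes the test called 7, 40, 46 and 50 of 50 genes given log2 changes of 0.5, 1, 2 and 3, respectively, and 13 unchanged genes. Values were drawn independently for each gene, and changes were given only to genes above a set level. Library effects shared by short rows were left out, so these rates need not hold for Snord rows.

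For the common effective length, each row of 57 to 99 bases was multiplied by its effective length in that library over the mean of the 6. Steps were fitted on 304 short rows that include the Snord rows. Fragment counts show counting error only and no count model was used.

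Members, gene lists and marker lists were chosen with earlier results of these data known. The rule named every host, the 10 Snord rows of highest mean, up to 6 rows per direction by unadjusted p, the row just inside the rule, and up to 4 list members by unadjusted p. Snord22 and Snord89 lie in genes not analysed here. Snord35a, Snord49b, Snord52, Snord85, Snord87, Snord92, Snord123, the Snora rows, the endothelial markers Cdh5, Kdr and Cldn5, Rpl13a and Nop53 were named outside that rule, after their values were seen. Alternatives were the pseudocount, the filter, the scaling, removal of small RNA rows, the replicate block, no trend, each library left out, and the common effective length. A row named by that rule and a sequence are not reported here.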

Additional observations from a re-analysis of the deposited data

How the results depend on the processing

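No Snord row, host or gene of the protein, processing and nuclear RNA lists passed the threshold under any of the alternatives run. The cell type markers were not counted in the alternatives. The Snord median log2 difference ran from 0.32 (without the first 18-month library) to 0.79 with 1 library left out, and fell to 0.06 at the common effective length. Among 61 named genes, 791 of 850 alternative values kept their direction and 59, in 23 genes, did not. Their smallest adjusted p was 0.104. The number of all genes past the threshold, 3, became 0 with no filter, 16 with quantile normalization, 28 with small RNA rows removed (which also removed Snhg9) and 0 to 2 with 1 library left out. At the common effective length it was 15 with median-of-ratios scaling and 1 with no filter. The cause was not tested.

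The replicate numbers gave no sign of pairing over all tested rows (correlations of -0.01, -0.09 and 0.06 between same-numbered libraries). Such values cannot show whether same-numbered libraries were prepared together. With the replicate block 0 genes passed, also at the common effective length, and 14 Snord rows in place of 4 had an unadjusted p under 0.05. The share of all rows at that level was not counted with the block, so the 14 has nothing to be set against. Median-of-ratios scaling left the median of all genes near 0 in place of -0.08.

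Directions that turned are given as log2 differences. At the common effective length these were Snord104 -0.14, Snord96a -0.091, Snord73a -0.24, Snord49a -0.032, Snord2 -0.43, Snord8 -0.15, Snord87 -0.58 and Snord123 -0.10. With median-of-ratios scaling they were Gas5 0.041, Snhg20 0.082, Snord95 0.074, Snord82 0.036, Snu13 0.051, Ruvbl1 0.0017 and Kcnq1ot1 0.0054. With quantile normalization they were Gas5 0.015, Snhg20 0.059, Snord95 0.072, Snord82 0.046, Snu13 0.010, Kcnq1ot1 0.0078 and Malat1 -0.019. With small RNA rows removed there was Snhg20 0.022. Other directions turned with 1 library left out. These values ran for Gas5 from -0.17 to 0.059, Snhg10 from -0.086 to 0.16, Snhg20 from -0.30 to 0.17, Snhg5 from -0.062 to 0.12 and Snhg6 from -0.067 to 0.11. They ran for Snhg8 from -0.059 to 0.15, Snord73a from -0.17 to 0.65, Snord2 from -0.37 to 0.28, Snord1c from -1.78 to 0.37 and Snord95 from -0.40 to 0.31. They ran for Snord82 from -0.78 to 0.73, Snord87 from -0.46 to 0.48, Snord123 from -0.50 to 0.90, Nop58 from -0.14 to 0.31 and Snu13 from -0.14 to 0.039. They ran for Nop10 from -0.26 to 0.0055 and Malat1 from -0.0098 to 0.17.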
